A study of Mus musculus with 6 samples.

Results

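Sox9, Gdf5 and Tmem119 are 3 genes best known from the skeleton, and they were taken by their symbols from a deposited table of 581 genes in NIH-3T3 cells. NIH-3T3 is an immortalised wild-type mouse embryo fibroblast line. In this experiment 3 libraries came from cells on the Nanopore #3 scaffold, as the labels name it, and 3 from cells on standard plates. All cells were kept in DMEM with fetal bovine serum. The material of the scaffold, the time in culture and whether the replicates were separate cultures are not given in the labels, so a p-value here reflects the spread of 6 libraries that may be technical replicates. All 581 genes had been selected on their difference between these same 6 libraries, and the members were chosen with that scaffold to plate difference known. Their differences are therefore a description and carry no test. For the other genes of the table a limma call states only that the selected difference is also seen in this fit, and is no independent evidence.

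Sox9 is a transcription factor with an HMG box, a DNA-binding domain shared with the sex-determining factor Sry, and in the embryo it is required for cells to become chondrocytes. Gdf5 is a secreted ligand of the BMP family that marks the future joint in the limb and signals through BMP receptors to SMAD proteins. Tmem119 is a single-pass membrane protein that promotes osteoblast differentiation in mice and is also used as a marker of microglia. A mesenchymal precursor can take the cartilage, joint, tendon or bone path, and the 3 genes stand for different branches of that choice.

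The reads behind Gdf5 carry an ambiguity that its sequence makes visible. In the GENCODE M21 annotation of GRCm38, the gene (ENSMUSG00000038259, chromosome 2, 155941023 to 155945367, minus strand) has 2 exons and 1 transcript. Its exon 2 shares 936 bases, from 155941482 to 155942417, with an exon of Gm15557 on the plus strand. That is 40.3% of the exon length of Gdf5, and 872 of the shared bases are coding. Gm15557 is not among the 581 genes and was not analysed here. Reads in the shared part cannot be given to either gene without strand, and the labels do not say whether counting used it. The coding sequence over the exon junction is shown because a spliced read across it belongs to Gdf5 alone. It joins 45 bases of exon 1 in lower case, chr2:155944443-155944487, to the first 45 bases of exon 2, chr2:155942373-155942417, in capitals, which lie in the shared part (GRCm38, minus strand).
Gdf5 exon junction: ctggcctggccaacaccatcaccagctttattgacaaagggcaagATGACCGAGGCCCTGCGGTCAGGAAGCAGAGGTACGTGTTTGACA

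**Figure D1:**
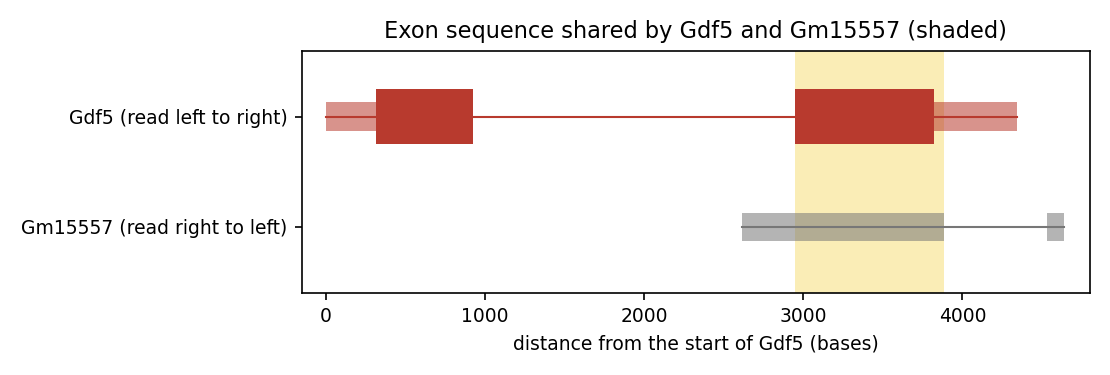
Exons of Gdf5 and Gm15557 by distance from the start of Gdf5 in bases, with exons as boxes, the coding parts of Gdf5 as tall boxes and the shared exon sequence shaded. The 936 shared bases begin at the start of Gdf5 exon 2 and cover all 872 coding bases of that exon.

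The exons of Sox9 and Tmem119 overlapped no other gene in the same annotation. Sox9 (ENSMUSG00000000567, chromosome 11, 112782224 to 112787760, plus strand) has 3 exons and 1 transcript. Tmem119 (ENSMUSG00000054675, chromosome 5, 113793729 to 113800516, minus strand) has 2 annotated transcripts.

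The 3 genes did not move together. On the scaffold Sox9 was higher by a factor of 2.48, Tmem119 was at 0.206 of its plate mean, and Gdf5 was at 1 read in each scaffold library whose reads could be recovered. Levels are normalised read counts, that is reads per gene divided by a size factor for the library, and are not corrected for gene length. In these bulk samples fewer cells that express a gene and less RNA per cell cannot be told apart. For all 3 members the scaffold values and the plate values did not overlap, as in 573 of the 581 genes (98.6%), a table chosen on this difference.

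Sox9 had normalised counts of 3903, 3815 and 4129 in the scaffold libraries and of 1614, 1576 and 1595 in the plate libraries. Both groups were tight, and the lowest scaffold library lay 2201 above the highest plate library. The mean was 3949 ± 162 on the scaffold and 1595 ± 18.6 on plates (SD, n = 3 each). On the log2(value + 1) scale the difference, scaffold minus plate, was 1.31 with a standard error of 0.0640 from a limma fit over all 581 genes. Rescaling the libraries on these 581 selected genes alone, most of them lower on the scaffold, changed the size of this difference but not its direction. It was 2.07 with the libraries rescaled to equal medians, which raised the median difference of all genes by 0.74. It was 0.76 after quantile normalisation, which raised that median by 0.63.

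Tmem119 had normalised counts of 186, 97.4 and 72.3 in the scaffold libraries and of 555, 557 and 616 in the plate libraries. The scaffold libraries were all low but unequal: replicate 1 was 2.58 times replicate 3, whereas the highest plate library was 1.11 times the lowest. The mean was 119 ± 59.8 on the scaffold and 576 ± 34.5 on plates (SD, n = 3 each). The log2 difference was -2.38 (SE 0.283), and leaving out a library in turn gave -2.76 to -2.09. The coefficient of variation between scaffold libraries was 50.4%, against 9.18% that counting alone gives at that level. On plates it was 5.99%, against 4.17% from counting.

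Gdf5 had normalised counts of 1.03, 1.06 and 0.990 in the scaffold libraries and of 12.9, 10.3 and 12.4 in the plate libraries. The scaffold values equal the smallest value above 0 that each of those libraries holds. For replicates 1 and 2 that is 1 read each, and for replicate 3, whose reads were not recovered, it is 1 step of its scale. The plate libraries held 14, 10 and 13 reads. The close agreement of the scaffold values is thus that of single reads, and each such library had an exact 95% Poisson interval of 0.0253 to 5.57 reads. Over the 5 libraries with recovered reads the scaffold to plate ratio of normalised reads was 0.0877, with an exact 95% interval of 0.0102 to 0.34 that covers counting error only. The log2 difference of -2.66 (SE 0.384) depends on the pseudocount and was -3.51 with a pseudocount of 0.01 in place of 1.

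**Figure D2:**
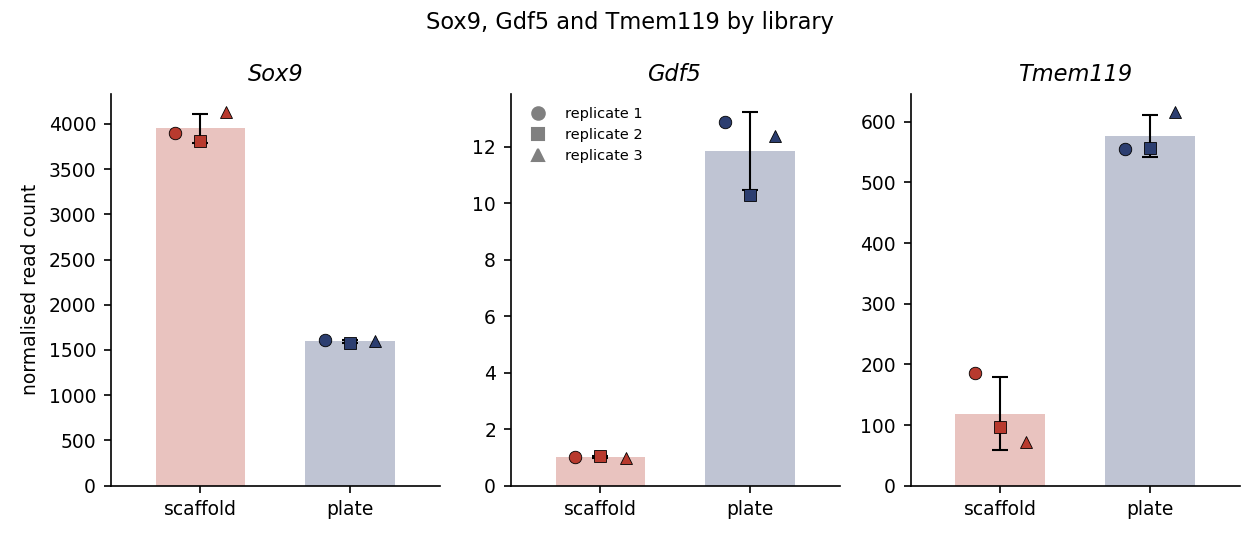
Normalised read count of Sox9, Gdf5 and Tmem119 in scaffold and plate libraries, each panel with its own axis from 0, with bars for means, error bars for SD (n = 3 each) and a symbol per replicate. The scaffold bar is the higher for Sox9 (3949 against 1595) and the lower for Gdf5 (1.03 against 11.8) and Tmem119 (119 against 576).

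Levels were compared between the genes per kilobase of exon. Sox9 stood at 955 ± 39.1 per kilobase on the scaffold and 386 ± 4.49 on plates (SD, n = 3 each). Tmem119 stood at 51.2 ± 25.8 on the scaffold and 249 ± 14.9 on plates, and Gdf5 at 0.442 ± 0.0150 on the scaffold and 5.11 ± 0.590 on plates. The small scaffold SD of Gdf5 comes from values at the smallest step of each library and is no measure of precision. Its length here includes the exon bases shared with Gm15557. Their order, Sox9 above Tmem119 above Gdf5, was the same on both surfaces, but the distances changed. Sox9 held position 25 of the 581 genes per kilobase on the scaffold and position 39 on plates. Tmem119 held position 149 on the scaffold and position 55 on plates, and Gdf5 held position 566 on the scaffold and position 475 on plates.

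The ratio of Sox9 to Tmem119 within a library does not depend on the size factor, so no rescaling of whole libraries changes it. Per unit length this ratio was 11.7, 21.9 and 32.0 in the scaffold libraries and 1.63, 1.59 and 1.45 in the plate libraries. The scaffold ratios were all well above the plate ratios and differed among themselves, as did Tmem119 itself. On the log2 scale the mean ratio was 3.70 higher on the scaffold, where its SD was 0.73, against 0.09 on plates. The ratio of Tmem119 to Gdf5 per unit length was 181, 92.2 and 73.2 on the scaffold and 43.2, 54.2 and 49.9 on plates, with single scaffold reads of Gdf5 in the denominator.

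Within the table the members were ordinary or extreme in different respects. Among the 392 genes lower on the scaffold, Gdf5 ranked 12 and Tmem119 ranked 23 by log2 difference with a pseudocount of 1. By the ratio of group means, leaving out genes at 0 in a whole group, Gdf5 ranked 5 and Tmem119 ranked 40, and the ranks of Gdf5 rest on single scaffold reads. Most genes with larger decreases than Tmem119 had mean values below 100: among the 105 lower genes at or above that mean, Tmem119 ranked 3. Sox9 ranked 107 of 189 higher genes, and 42 of the 96 that reached a mean of 100. The scaffold SD of Tmem119 on the log2 scale, 0.69, was exceeded by 8 of the 105 lower genes with that mean, while the SD of Sox9, 0.06, was exceeded by 75 of the 96 higher ones.

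**Figure D3:**
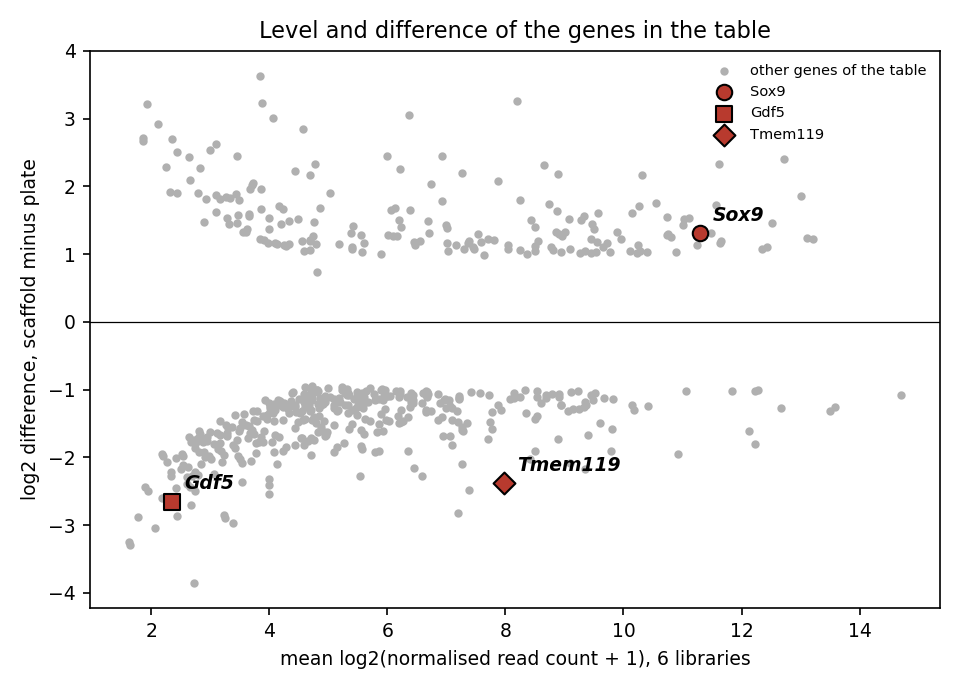
Log2 difference, scaffold minus plate, against the mean log2(normalised read count + 1) over 6 libraries for the 581 genes, with the members marked. Sox9 lies among the abundant higher genes at 1.31, Tmem119 below most lower genes of its level at -2.38, and Gdf5 among the lower genes with few reads at -2.66.

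The order of the scaffold libraries also differed between the members. In Tmem119, replicate 1 was the highest and replicate 3 the lowest, an order shown by 137 of the 392 lower genes (34.9%), more than any of the other 5 orders. Scaffold replicate 1 was thus the nearest to plates for Tmem119 and for many of the lower genes. It was so for many higher genes too: replicate 3 highest and replicate 1 lowest was their commonest order, in 61 of 189 (32.3%). In Sox9, replicate 3 was the highest and replicate 2 the lowest, an order shown by 32 of the 189 higher genes (16.9%). These counts describe genes that share the same libraries and carry no test.

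The genes with the nearest profile were found by the root mean square distance over the 6 libraries between log2(value + 1) profiles, each centred on its plate mean, among 418 genes with an established symbol. Tmem119 was nearest to Daam2, a formin that links Wnt signalling to actin, at a distance of 0.07. Daam2 had 201, 97.4 and 68.3 in the scaffold libraries and 572, 562 and 582 in the plate libraries, which is close to Tmem119 in every library. Clu, the secreted chaperone clusterin, followed at 0.14, the cholesterol exporter Abca1 at 0.17 and Svep1, a large adhesion protein of the extracellular matrix, at 0.25. The median distance of the 418 genes to Tmem119 was 0.97. Of these 4 genes, 2 were still among the nearest without scaffold replicate 3 and 1 after quantile normalisation. Of the exon length of Svep1, 13.9% is shared with a gene on the opposite strand.

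Sox9 was nearest to Plk3, a polo-like kinase, at 0.04. Plk3 had 2630, 2674 and 2806 in the scaffold libraries and 1151, 1052 and 1115 in the plate libraries. Btn1a1, a butyrophilin of the milk fat globule, Zfand2a, a zinc finger protein induced by arsenite, and Sema4b, a transmembrane semaphorin, followed at 0.05 to 0.06. In all 4 the spread within groups was small beside the difference between them. Btn1a1 rose over the scaffold libraries, with 2461, 2629 and 2901, and so did Sema4b, with 1393, 1526 and 1603. Without scaffold replicate 1, 2 of these 4 genes were still among the nearest, and after quantile normalisation 0 were. The nearest genes to Gdf5 were Abca1 at 0.39, the interferon-induced Oasl2 and Tmem119 at 0.45 each, and Clu at 0.47, but leaving out a library kept 0 to 2 of these 4, a smaller pseudocount kept 1 and quantile normalisation kept 0.

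**Figure D4:**
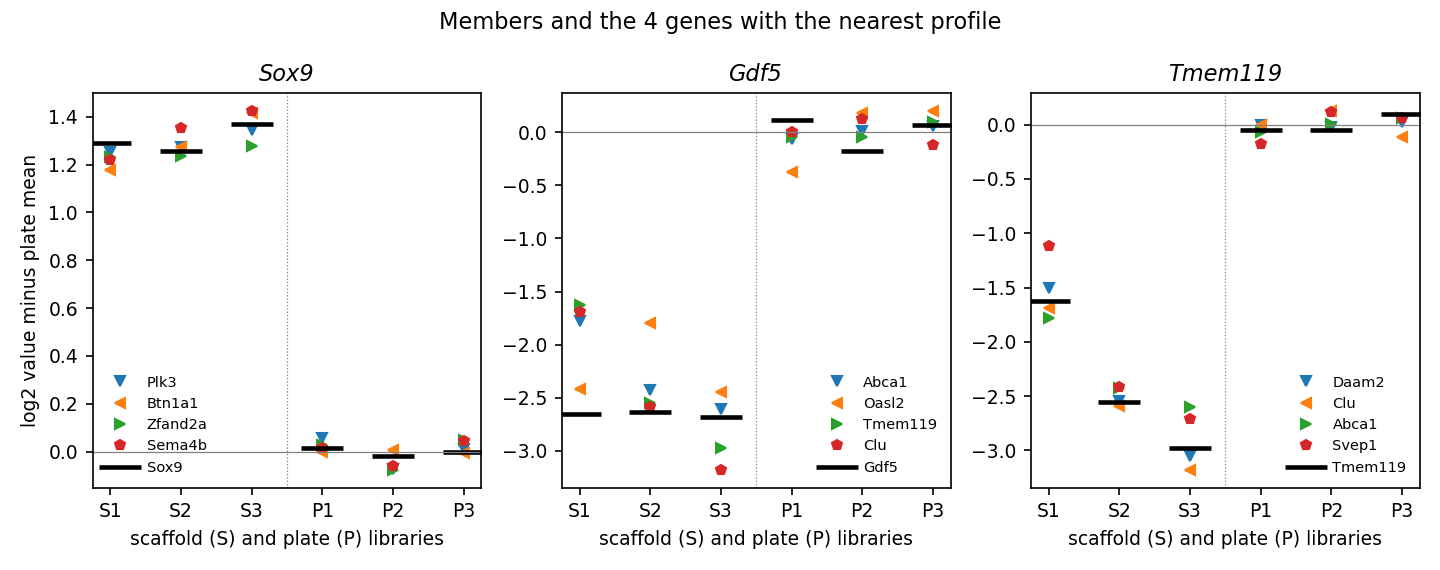
Log2(value + 1) minus the plate mean in the scaffold (S1 to S3) and plate (P1 to P3) libraries for each member (black bar) and its 4 nearest genes (symbols). In the Tmem119 panel S1 is the highest and S3 the lowest scaffold library for Tmem119, Daam2, Clu, Abca1 and Svep1. Abca1 and Svep1 differ little between S2 and S3. In the Sox9 panel the spread within groups is small beside their difference, with Btn1a1 and Sema4b rising from S1 to S3.

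Genes of the wider skeletal programmes were mostly lower where the table held them. The lists of chondrocyte, osteoblast, joint and tendon, BMP, SOX and Wnt genes named 186 genes, of which 16 are in the table and the other 170 were not analysed here. Without the 3 members, 3 of 13 rose and 10 fell in limma at an adjusted p of 0.05, with a median log2 difference of -1.43. Over all 581 genes 32.2% rose and 67.5% fell, 99.7% in all, with a median of -1.16, so the counts were near the background of this preselected table. That background itself changed when the libraries were rescaled on these selected genes alone. Equal medians gave 397 calls, 189 higher and 208 lower, and quantile normalisation gave 397, 187 higher and 210 lower. As deposited, 187 were higher and 392 lower. Both rescalings ended the calls of Omd, Smad9 and Tcf7 among these 13, and quantile normalisation also that of Col1a2. The rescalings kept the direction of the other genes, and equal medians moved most of their differences by over 1.5 times.

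In the chondrocyte and cartilage matrix list 3 of 30 symbols are in the table, and Sox9 was the one higher on the scaffold. Col11a1, a chain of the type XI collagen of cartilage fibrils, had 36.0, 27.5 and 24.7 in the scaffold libraries and 69.9, 86.4 and 84.7 in the plate libraries. It fell by 1.43 on the log2 scale (SE 0.212). Chad, the cartilage leucine-rich repeat protein chondroadherin, had 5.14, 6.36 and 2.97 on the scaffold and 23.9, 25.7 and 17.1 on plates. It fell by 2.02 (SE 0.356), a size that is uncertain at such low scaffold values. The direction of both was thus opposite to that of Sox9.

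In the osteoblast and bone matrix list all 5 of the 32 symbols present, Tmem119 included, were lower on the scaffold. Of all 581 genes 67.5% fell, and Tmem119 was chosen with its fall known, so this count is no evidence on bone genes. Ogn and Omd encode the small leucine-rich proteoglycans osteoglycin and osteomodulin. Ogn had 66.8, 24.4 and 14.8 in the scaffold libraries and 125, 130 and 86.6 in the plate libraries, with scaffold replicate 1 the highest and replicate 3 the lowest, as in Tmem119. Omd had 7.20, 4.24 and 2.97 in the scaffold libraries and 23.0, 19.6 and 9.52 in the plate libraries. Scaffold replicate 1 was again the highest, but with so few reads the order is uncertain. The order of Tmem119 was also that of Col11a1, Col1a1, Col1a2 and Daam2. It was not that of Chad, Id3, Smad9 or Tcf7, also lower genes of these lists. The type I collagen chains Col1a1 and Col1a2 had log2 differences of -1.31 and -1.08. Quantile normalisation brings the difference of Col1a2 to 0 because this gene holds the top value of all 6 libraries.

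The list for joint, synovium and tendon held Gdf5 and 2 zinc finger transcription factors known in tendon, Egr1 and Egr2, of 21 symbols. Egr1 averaged 957 ± 353 on the scaffold and 94.5 ± 8.27 on plates, and Egr2 averaged 72.6 ± 7.14 on the scaffold and 32.1 ± 6.67 on plates (SD, n = 3 each), so both rose while Gdf5 was lower. Both factors are also general immediate early genes.

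The BMP and GDF list held 4 of 39 symbols. Beside the ligand Gdf5 these were the signal transducer Smad9 and the BMP-responsive inhibitors of bHLH factors Id3 and Id4. Smad9 had 7.20, 14.8 and 0.990 in the scaffold libraries and 24.8, 24.7 and 26.6 in the plate libraries. It fell by 2.05 (SE 0.642), but its log2 difference was -1.21 without scaffold replicate 3 and -1.20 in edgeR on the recovered reads, which lack the same library. Id3 averaged 155 ± 32.8 on the scaffold and 362 ± 35.7 on plates, whereas Id4 averaged 65.4 ± 10.1 on the scaffold and 25.9 ± 5.48 on plates (SD, n = 3 each). The Id genes thus went in opposite directions.

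Of the 20 SOX genes listed, Sox9 is the member in the table. The Wnt list held 2 of 53 symbols, both lower, as were 67.5% of all 581 genes. They are Daam2, described above, and Tcf7, an HMG-box transcription factor of Wnt signalling. Tcf7 had 7.79 ± 3.59 on the scaffold and 22.8 ± 7.52 on plates (SD, n = 3 each).

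**Figure D5:**
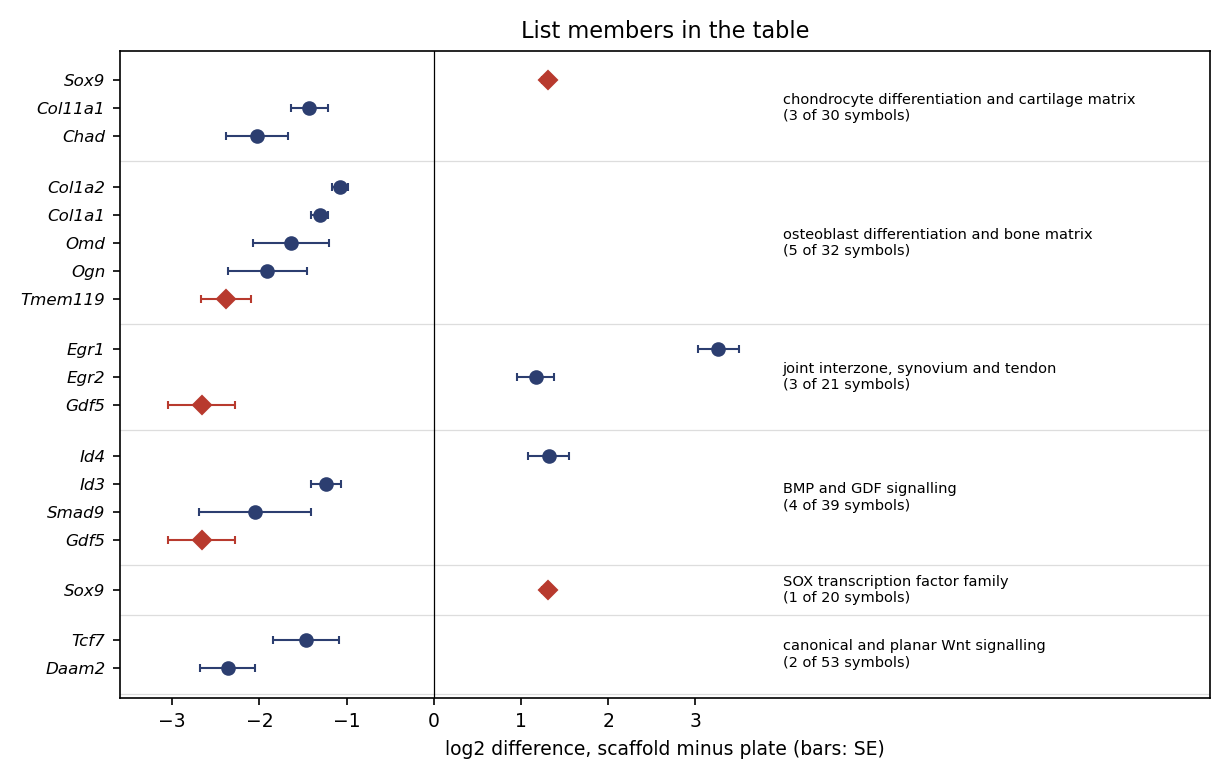
Log2 difference, scaffold minus plate, with SE for the list members in the table (diamonds: Sox9, Gdf5 and Tmem119, circles: other genes), with the number of listed symbols present. Sox9, Egr1, Egr2 and Id4 lie right of 0 and the other genes left of it.

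Because Tmem119 also marks microglia, markers of that cell type were read beside it. The microglia and macrophage list held 3 of 20 symbols, 1 of them Tmem119 itself. The summed value of all 3 ran from 470 to 687 in the scaffold libraries and from 1361 to 1492 in the plate libraries. Without Tmem119 the sum ran from 398 to 501 in the scaffold libraries and from 805 to 877 in the plate libraries, nearly all of it from Olfml3. Olfml3 fell, with 421 ± 63.1 on the scaffold and 850 ± 40.4 on plates (SD, n = 3 each), a call that equal medians ended. The purinergic receptor P2ry12 rose, with 9.25, 22.2 and 28.7 on the scaffold and 3.68, 1.03 and 2.86 on plates. Its plate values are few reads each, that of replicate 2 being the smallest value above 0 in its library, so the size of the rise is uncertain. All samples are of the NIH-3T3 fibroblast line, so these genes are read singly and not as a share of microglia. Such a share was not tested. Of the fibroblast markers 2 of 15 are in the table, the type I collagens, at a summed 23212 to 30363 on the scaffold and 56194 to 57427 on plates. The adipocyte list held 0 of 9 symbols and the skeletal muscle list 1 of 11, Chrna1, which rose. Markers outside this table of selected genes were not analysed here, so their absence says nothing of their expression.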

How the data were processed

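RNA-seq libraries of 6 NIH-3T3 samples were grouped by their titles. The tools named are fastp, HISAT2, HTSeq and DESeq2 and the build is GRCm39, per the submitters' processing notes, with versions and roles not given in the sources used here. What the authors deposited is a normalised signal per gene for 581 selected genes. Files are named FPKM, but 100% of the values in each library are whole multiples of 1 step, within 0.01 read, whatever the gene length. The size factors ran from 0.944 to 1.09. Reads were recovered in 5 libraries, 264178 to 293198 over these genes, and in scaffold replicate 3 the step lay too near 1 for the reads to be accepted. Of the identifiers, 555 have the same start and end in GENCODE M21, so coordinates are printed as GRCm38.

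limma 3.58.1 (R 4.3.3) was run on log2(value + 1) with an intensity trend, over genes with a mean of at least 0.5, which removed none, two-sided, with Benjamini-Hochberg adjustment at 0.05. A run on simulated counts, in which most genes were unchanged, checked the code. That setting differs from this preselected table, so the run says nothing of the calls here. Poisson intervals and read ratios are exact at 95%. Alternatives were pseudocounts, filters, rescalings, no trend, a replicate block, each library left out and edgeR 4.0.16 on recovered reads. Members and lists were chosen with earlier results of these data known. Named genes are the members, the 4 nearest profiles of each and the list members in the table. The other transcription factors of the last section were named outside this rule, after their values were seen.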

Additional observations from a re-analysis of the deposited data

How the results depend on the processing

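Sox9 stayed higher and Gdf5 and Tmem119 stayed lower on the scaffold under every alternative run. Rescaling to equal medians gave log2 differences of 2.07, -2.11 and -1.62 for Sox9, Gdf5 and Tmem119, and quantile normalisation gave 0.76 for Sox9 and -1.78 for Gdf5. These rescalings rest on the selected genes alone. Lower genes made up 52.4% and 52.9% of the calls under them, against 67.7% as deposited. Gdf5 was at -3.40 and -3.51 with pseudocounts of 0.1 and 0.01, -3.36 in edgeR on recovered reads and -3.53 as a ratio of means. With each library left out the differences ran from 1.27 to 1.33 for Sox9, from -2.75 to -2.60 for Gdf5 and from -2.76 to -2.09 for Tmem119, and 573 to 579 genes were called. With a replicate block 580 were called, against 579 without. Same-numbered libraries deviated together with correlations of -0.03, 0.07 and 0.06, and differently numbered ones with -0.10 to 0.03. With so few libraries these values cannot decide whether the numbers pair them. Of the 4 nearest genes, quantile normalisation kept 0 for Sox9, 0 for Gdf5 and 1 for Tmem119, and either smaller pseudocount kept 1 for Gdf5. With a library left out, 2 to 4 were kept for Sox9, 0 to 2 for Gdf5 and 2 to 3 for Tmem119. The cause was not tested. Depth limits Gdf5, with 1 read in each scaffold library whose reads were recovered.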

Other observations

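The table gives 29 genes a transcription factor family, and these were looked at after their values were seen. Of them 8 were higher and 21 lower on the scaffold in limma at an adjusted p of 0.05, near the 32.2% higher and 67.5% lower of the whole table. Sox9 had the highest level per kilobase of the 29 on both surfaces, followed by the forkhead gene Foxc2 with 582 on the scaffold and 283 on plates. Foxc2, which acts in skeletal and vascular mesenchyme, had 1605, 1569 and 1588 normalised counts in the scaffold libraries and 809, 752 and 755 in the plate libraries, so it stood beside Sox9 among the higher genes. The lower factors described next were picked from the 21 by no rule. Others fell more on the log2 scale, such as Bach2 (-1.83) and Hlf (-1.73). The alternative settings were not read for these factors or for Foxc2. Vdr, the vitamin D receptor, had 215, 176 and 96.0 on the scaffold and 346, 406 and 398 on plates. Its scaffold replicate 1 was the highest and replicate 3 the lowest, as in Tmem119. That order, the commonest among all lower genes, was also that of Gli2 and Nfatc4. Gli2, an effector of hedgehog signalling, had 60.7, 58.3 and 56.4 on the scaffold and 121, 128 and 124 on plates. Nfatc4, a calcineurin-dependent factor, had 201, 186 and 157 on the scaffold and 381, 434 and 384 on plates.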
